A study of Mus musculus with 4 samples.

Results

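The genes described here are those of reelin signalling and of the migration and wiring of cerebellar granule cells. They were chosen by name, as every probe set whose single gene symbol was Reln, Dab1, Vldlr, Lrp8, Astn1, Cxcr4, Cxcl12 or Cbln1. The choice gave 8 genes with 24 probe sets, of 18193 genes with 34945 probe sets in all. RNA of 4 kinds of mouse cell had been hybridised to Affymetrix oligonucleotide arrays, with 1 array for each kind. The granule array came from cerebellar granule cells of postnatal day 6. The Sox1 array came from sorted sox1 neural stem cells, and the labels do not say how those cells were obtained. An array with the label HB9-GFP+ came from cells of a transgenic ES line in which GFP reports HB9, a motor neuron protein encoded by Mnx1, and the cells were collected by sorting on day 8 of differentiation. In that differentiation purmorphamine at 0.2 uM, retinoic acid at 0.1 uM and Sonic hedgehog were present between days 5 and 9 by the labels, an end that lies after the stated sort. The last array came from undifferentiated embryonic stem (ES) cells, and the HB9-ES line was kept on mouse embryonic fibroblasts with leukemia inhibitory factor. The labels give no strain or sex for the granule cells and do not say whether animals were pooled.

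Reelin, the product of Reln, is a large secreted glycoprotein that binds the lipoprotein receptors encoded by Vldlr and Lrp8. Binding leads to tyrosine phosphorylation of the adaptor Dab1 inside the receiving cell, through kinases of the Src family such as Fyn, and so directs where migrating neurons stop. In the developing cerebellum granule cells are a main source of reelin, and Purkinje cells and glia receive it. Granule cell precursors carry Cxcr4, the receptor for the chemokine Cxcl12 that the overlying meninges secrete. Newly made granule neurons use astrotactin, the product of Astn1, to move along Bergmann glial fibres, and later release cerebellin, the product of Cbln1, which links their synapses to Purkinje cell dendrites.

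The 250 bases before the annotated start of 4 of the genes are shown because those genes include the ones with the widest ranges over the arrays, a ligand and its receptor among them. All are from RefSeq on GRCm38.p6 and read 5′ to 3′ on the strand of the gene. Capitals mark the GC box GGGCGG, the E-box CAGCTG and the TATA box TATAAA, each searched on both strands, with overlapping matches counted separately.
Reln, chr5:22344706-22344955, minus strand: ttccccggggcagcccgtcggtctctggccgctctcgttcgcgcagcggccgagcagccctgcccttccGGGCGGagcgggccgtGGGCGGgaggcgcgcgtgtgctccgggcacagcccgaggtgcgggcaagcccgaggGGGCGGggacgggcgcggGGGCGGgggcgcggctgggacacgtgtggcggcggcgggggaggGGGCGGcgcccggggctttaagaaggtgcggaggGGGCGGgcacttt
Astn1, chr1:158362054-158362303, plus strand: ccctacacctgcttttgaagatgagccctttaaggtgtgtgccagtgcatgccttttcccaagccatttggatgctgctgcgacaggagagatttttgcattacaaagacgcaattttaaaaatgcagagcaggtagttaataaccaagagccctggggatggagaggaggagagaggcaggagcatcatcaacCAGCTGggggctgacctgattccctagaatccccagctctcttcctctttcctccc
Cxcl12, chr6:117168285-117168534, plus strand: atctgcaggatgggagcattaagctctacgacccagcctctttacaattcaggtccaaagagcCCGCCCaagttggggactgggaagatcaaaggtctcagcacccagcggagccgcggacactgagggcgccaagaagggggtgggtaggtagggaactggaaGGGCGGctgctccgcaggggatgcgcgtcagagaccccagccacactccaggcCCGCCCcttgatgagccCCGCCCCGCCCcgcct
Cxcr4, chr1:128592300-128592549, minus strand: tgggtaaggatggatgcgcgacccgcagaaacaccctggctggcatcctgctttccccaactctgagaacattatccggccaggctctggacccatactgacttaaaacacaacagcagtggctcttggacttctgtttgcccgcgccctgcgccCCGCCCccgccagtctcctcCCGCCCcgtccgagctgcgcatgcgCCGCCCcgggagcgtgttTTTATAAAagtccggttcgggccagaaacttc
The windows differed in base composition, also among genes that were brightest on the granule array. The Reln window was 80.0% G and C and held 37 CpG dinucleotides and 6 GC boxes. The Astn1 window was 50.4% G and C and held 2 CpG dinucleotides, no GC box and 1 E-box. The Cxcl12 window held 5 GC boxes, and the Cxcr4 window held 3 GC boxes and 2 overlapping TATA box matches. Over the 32841 windows of this kind in the table, the median was 52.4% G and C with 6 CpG dinucleotides, 32.7% held the GC box, 13.0% the E-box and 12.4% the TATA box. In all, 7 of the 8 genes had 11 windows in the table, and 5 of the 11 held a GC box. A match to such letters is a description of the window and not a site.

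The values are linear signals (intensities) that had been scaled so that each array had the same mean after trimming 2% of probe sets at each end. A signal is given as deposited. For comparisons, signals below a low level of 78.8, the mean of the log2 array medians turned back to a signal, were set to it. Detection required a signal of 157.5, which lies 1 log2 unit over the low level. The rule for calling a gene higher or lower was a 4-fold difference (2 log2 units) with the brighter signal detected. A fold against an undetected signal is given as a lower bound against the detection level. Each gene was represented by the probe set with the highest mean log2 signal. With 1 array per kind of cell there is no replicate error and no p-value, so every difference is one between these arrays, and their number limits the precision. For the granule and Sox1 arrays, the SD of the log2 difference was 0.07 over 18 hybridisation control probe sets and 0.49 among probe sets of the same gene, and this second SD ranged up to 0.67 over the 5 comparisons. Neither holds biological variation.

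The arrays had similar numbers of detected genes, from 9330 to 9518. The ratios of 3′ to 5′ control probe sets, a measure of RNA integrity, differed, at 2.29 (actin) and 2.70 (Gapdh) on the granule array, 5.08 and 3.68 on the Sox1 array, 2.77 and 1.37 on the HB9-GFP+-labelled array, and 4.55 and 1.99 on the ES array. Marker genes matched the granule label and went against the HB9-GFP+ label. Of 15 measured granule neuron and precursor markers, 12 were detected on the granule array, 8 on the Sox1 array, 2 on the HB9-GFP+-labelled array and 4 on the ES array. The granule array also gave detected signals for 10 of 10 astrocyte and Bergmann glia markers, 5 of 6 Purkinje markers, 6 of 7 cerebellar interneuron markers, 2 of 3 unipolar brush cell markers, 6 of 7 oligodendrocyte lineage markers and 5 of 8 microglia and blood markers, and for 0 of 7 endothelial markers. The Sox1 array had 11 of 11 neural stem cell markers, of which the granule array had 8, and 8 of 13 pluripotency markers. On the HB9-GFP+-labelled array, 1 of 9 motor neuron markers (Olig2), as many as on each other array, and 13 of 13 pluripotency markers were detected, and Mnx1 was undetected at 15.9, so this array is named by its label only. The ES array had 13 of 13 pluripotency markers.

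**Figure D1:**
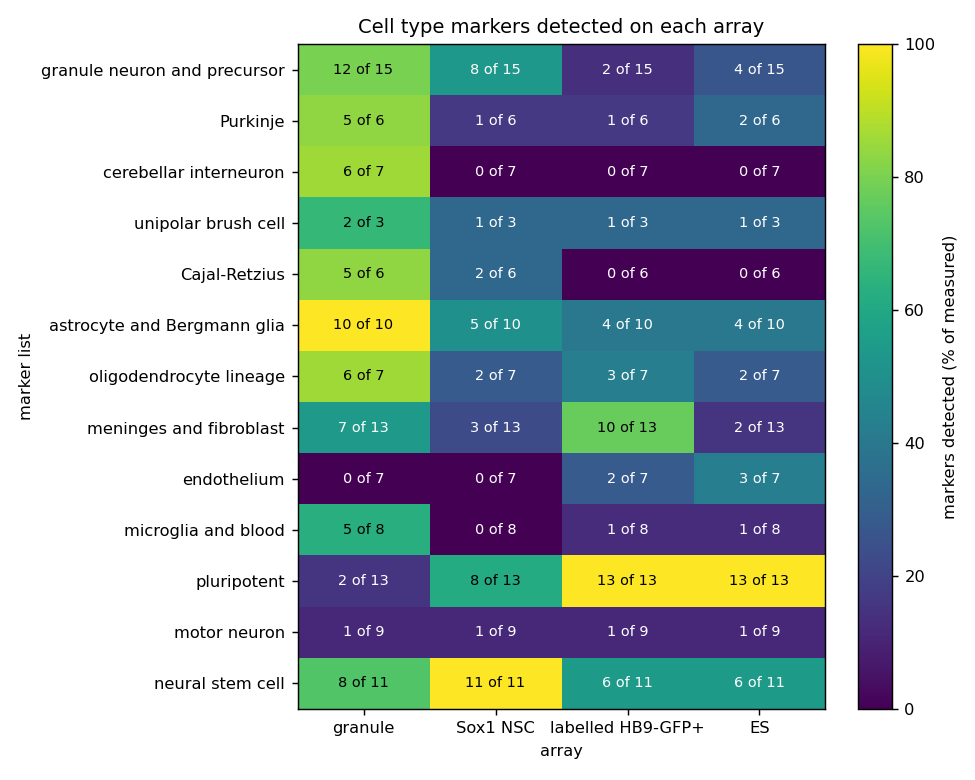
Number of measured marker genes detected (signal of at least 157.5) in 13 cell type lists (rows) on the 4 arrays (columns), with colour giving the percentage of the measured markers. The granule array had detected markers of granule neurons, glia and other cerebellar neurons, and the HB9-GFP+-labelled array had all 13 pluripotency markers and 10 of 13 markers of meninges and fibroblasts.

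All 8 genes were detected on the granule array and on the Sox1 array, against 4 on the HB9-GFP+-labelled array and 3 on the ES array. Of all 18193 genes, 9518 were detected on the granule array, 9376 on the Sox1 array, 9330 on the HB9-GFP+-labelled array and 9420 on the ES array. Of the 8, Reln, Vldlr, Astn1, Cxcl12 and Cbln1 were brightest on the granule array and Dab1, Lrp8 and Cxcr4 on the Sox1 array, an order that turned for Lrp8 under both centrings on reference genes and for Dab1 under the one without Hprt. None was brightest on the other 2 arrays, on which 27.8% (labelled HB9-GFP+) and 23.2% (ES) of the 11571 genes detected on any array had their highest signal. The granule array held the highest signal of 28.4% of those genes and the Sox1 array that of 20.6%. Of the 24 probe sets, 19 were detected on at least 1 array, 11 of them brightest on the granule array, another 6 on the Sox1 array, with 2 on the HB9-GFP+-labelled array. The 5 undetected probe sets were 1 each of Reln, Lrp8 and Cxcl12 and 2 of Vldlr. These are bulk samples, in which fewer cells of a type and less RNA per cell cannot be told apart.

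**Figure D2:**
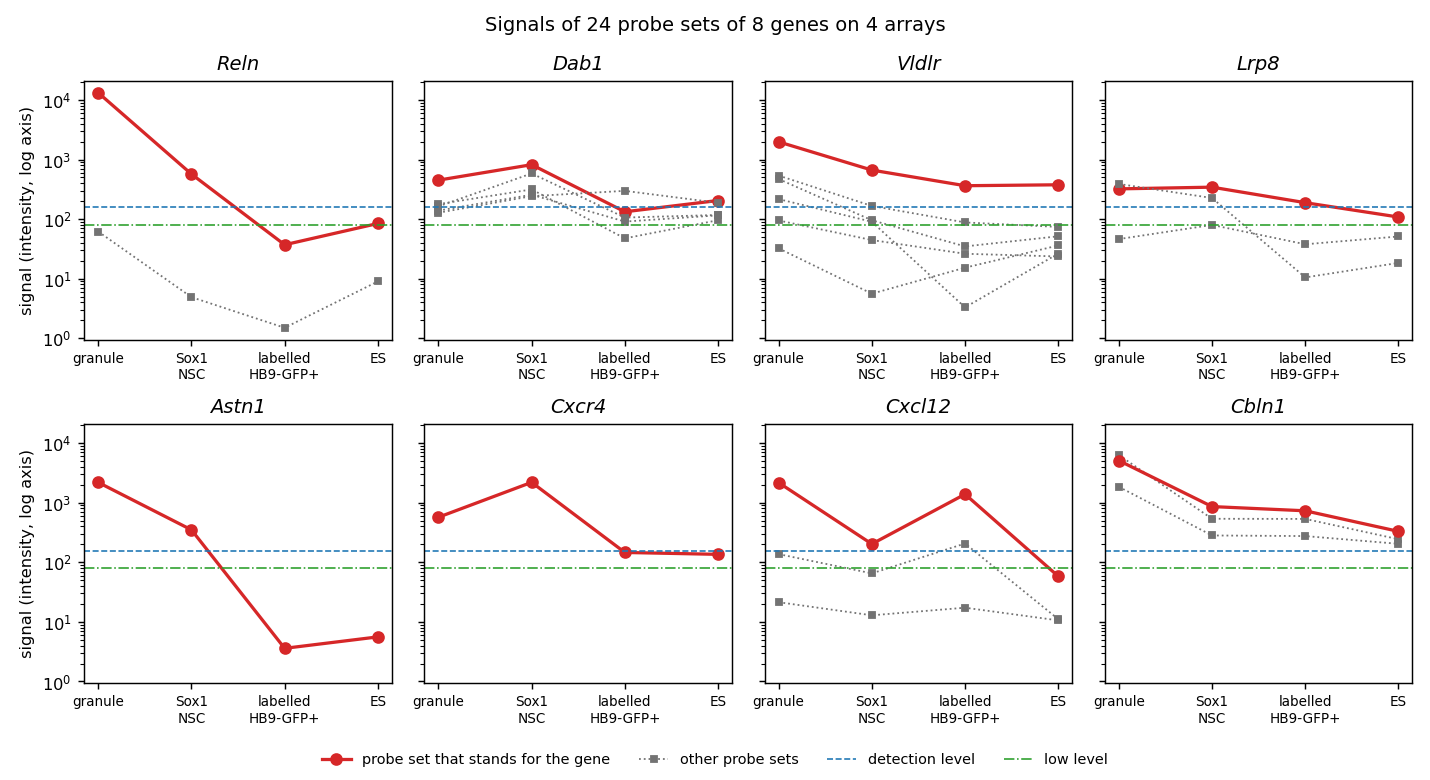
Signal (vertical, log axis) of each of the 24 probe sets of the 8 genes on the 4 arrays, with lines joining the values of 1 probe set. Red circles mark the probe set that stands for the gene, grey squares the others, and horizontal lines the low level (78.8) and the detection level (157.5). Reln and Astn1 fall below the low level or near it on the HB9-GFP+-labelled array and the ES array, while the red circles of Vldlr and Cbln1 stay above detection on all 4 arrays.

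The ligand Reln had the widest range of the 8 genes. Its signal was 13182.7 on the granule array, 569.7 on the Sox1 array, 37.1 on the HB9-GFP+-labelled array and 84.5 on the ES array. The granule array stood alone at the top, the Sox1 array was intermediate and the remaining arrays were undetected. Reln was 23.1-fold higher on the granule array than on the Sox1 array, a log2 difference of 4.53. Among the 8489 genes detected on both of those arrays, 11 including Reln differed by as much in that direction. Against both the ES array and the HB9-GFP+-labelled array it was at least 83.7-fold higher on the granule array. It was also called higher on the Sox1 array than on the ES array, with a log2 difference of 2.75 and a bound of at least 3.62-fold. These values rest on 1 probe set, 1449465_at, since the other passed detection nowhere, with 61.8 on the granule array and 9.0 or less elsewhere. Cajal-Retzius cells also make reelin, and of 6 markers of that type, 5 were detected on the granule array with a summed signal of 14472, against 2 markers and 2701 for the Sox1 array and 0 on the other 2 arrays, where the sums were 306 (labelled HB9-GFP+) and 254 (ES). Of those markers, Trp73 was undetected on all arrays (146.8 on the granule array), Nhlh2 is also in the granule neuron list, and Lhx1 and Lhx5 are also in the interneuron list. Calb2 is also in the unipolar brush cell list. Most of the sum on the granule array came from Nhlh2 (8171.4) and Ebf3 (4593.1). Their part in the Reln signal was not tested.

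The receptor genes differed in their order over the arrays. Vldlr, the very low density lipoprotein receptor, had a signal of 1979.4 on the granule array, 665.0 on the Sox1 array, 363.3 on the HB9-GFP+-labelled array and 376.6 on the ES array. It was detected on all 4 arrays and highest on the granule array, 5.26-fold higher than on the ES array and 5.45-fold higher than on the HB9-GFP+-labelled array. The granule and Sox1 signals differed by 1.57 log2 units, which is short of 4-fold. The probe set behind these values, 1434465_x_at, is of a class whose probes can match other transcripts, but the other 3 detected probe sets were also brightest on the granule array. Over the 4 detected probe sets the log2 differences were 1.26 to 2.30 for granule minus Sox1 and 1.46 to 2.77 for granule minus ES.

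Lrp8, also called ApoER2, showed no called difference in any of the 5 comparisons on its brightest probe set. Its signal was 321.7 on the granule array, 343.6 on the Sox1 array, 188.6 on the HB9-GFP+-labelled array and undetected at 108.3 on the ES array. The granule and Sox1 signals were 0.10 log2 units apart, within the spread among probe sets of a gene, and the difference of -0.10 became 0.65 and 0.79 with centring on reference genes, with and without Hprt. A further Lrp8 probe set, 1442347_at, gave a steeper picture, at 388.7 on the granule array, 226.0 on the Sox1 array, 10.5 on the HB9-GFP+-labelled array and 18.4 on the ES array. On it the gene was called higher on the granule array than on the HB9-GFP+-labelled array and the ES array, at 2.30 log2 units each. The probe sets of Lrp8 therefore disagree on the size of the difference, and the remaining one was undetected on all 4 arrays.

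Dab1, the adaptor that reelin receptors signal through, was brightest on the Sox1 array. Its signal was 450.5 on the granule array, 819.1 on the Sox1 array, undetected at 132.7 on the HB9-GFP+-labelled array and 205.2 on the ES array. All 5 of its probe sets were lower on the granule array than on the Sox1 array, by 0.82 to 1.84 log2 units, and none reached 4-fold. Between the Sox1 and ES arrays the brightest probe set lay just under the rule, at 3.99-fold, and a second, 1427308_at, lay past it with signals of 584.2 against 117.3. All 5 were higher on the Sox1 array than on the ES array, by 0.37 to 2.32 log2 units. The exception to the common order was 1421100_a_at, which was brightest on the HB9-GFP+-labelled array, at 298.0, against 128.0 on the granule array, 242.8 on the Sox1 array, then 187.8 on the ES array. The lower Dab1 signal on the granule array than on the Sox1 array depended on the scaling, since the log2 difference of -0.86 became -0.12 with centring on reference genes and 0.03 with that centring without Hprt. Purkinje cells and Bergmann glia receive reelin in the cerebellum, and markers of both were detected on the granule array, with summed signals of 11577 (Purkinje, 6 genes) and 46288 (astrocyte and Bergmann glia, 10 genes), against 662 and 23030 on the Sox1 array. Fabp7 alone gave 21466 of that Sox1 glial sum, against 17695 on the granule array, and the Purkinje marker Ppp1r17 was lower on the granule array (67.4) than on the Sox1 array (286.5). The part of such cells in the Vldlr, Lrp8 and Dab1 signals was not tested.

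The chemokine and its receptor were also brightest on different arrays. Cxcr4, measured by a single probe set, had a signal of 570.9 on the granule array, 2198.6 on the Sox1 array, 146.3 on the HB9-GFP+-labelled array and 136.0 on the ES array. The Sox1 array was highest, the granule array was detected, and the remaining arrays were undetected. Cxcr4 was at least 14.0-fold higher on the Sox1 array than on the ES array. On the granule array it was called higher than on the ES array, with a log2 difference of 2.07 and a bound of at least 3.62-fold, a call close to the rule. It was 3.85-fold lower on the granule array than on the Sox1 array, just short of 4-fold. The size of this gap depended on the scaling. The log2 difference of -1.95 became -1.20 and -1.06 with centring on reference genes, with and without Hprt, and -2.12 with quantile normalization. Ackr3, the second receptor for Cxcl12, which takes the chemokine up, was also brightest on the Sox1 array, with 484.5 on the granule array, 3017.1 on the Sox1 array, 562.2 on the HB9-GFP+-labelled array and 205.9 on the ES array.

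Cxcl12 was the member that set the HB9-GFP+-labelled array apart from the ES array. Its signal was 2172.3 on the granule array, 202.9 on the Sox1 array, 1389.8 on the HB9-GFP+-labelled array and 58.2 on the ES array. The granule array and the HB9-GFP+-labelled array were 1.56-fold apart, and both were well above the Sox1 and ES arrays. Cxcl12 was 10.7-fold higher on the granule array than on the Sox1 array and at least 13.8-fold higher than on the ES array. On the HB9-GFP+-labelled array it was at least 8.82-fold higher than on the ES array. A second probe set, 1417574_at, was detected on the HB9-GFP+-labelled array alone, at 206.8, with 137.2 on the granule array, 65.2 on the Sox1 array, then 11.1 on the ES array. The 2 probe sets thus differ on which of the top arrays was brighter, at 0.64 and -0.59 log2 units for granule minus HB9-GFP+. Of 13 markers of fibroblasts and meninges, cell types that make Cxcl12, 7 were detected on the granule array with a summed signal of 6817, 3 on the Sox1 array with 2352, 10 on the HB9-GFP+-labelled array with 16982, and 2 on the ES array with 1278. Between the granule and HB9-GFP+-labelled arrays these markers had a median log2 difference of -0.80, with 1 called higher and 3 lower. This direction was opposite to that of the brighter Cxcl12 probe set and the same as that of the second. For granule minus Sox1, 2 of the 13 were higher and 0 lower (3.66% of all genes higher). For granule minus ES these counts were 4 and 0 (6.83%), and for HB9-GFP+ minus ES 6 and 0 (1.11%). Foxc1 and Foxd1, which mark the meninges, and Twist1 were undetected on all 4 arrays. The brightest markers of the list on the granule array were Col3a1 (2387.6), Igf2 (1562.2) and Col1a2 (980.9). The part of these cells in the Cxcl12 signal was not tested.

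Astn1, the gene of the neuronal adhesion protein astrotactin, had 1 probe set, which was detected on the granule and Sox1 arrays alone. Its signal was 2192.9 on the granule array, 350.3 on the Sox1 array, 3.6 on the HB9-GFP+-labelled array and 5.6 on the ES array. It was 6.26-fold higher on the granule array than on the Sox1 array. Against the ES array and the HB9-GFP+-labelled array it was at least 13.9-fold higher on the granule array. On the Sox1 array it was called higher than on the ES array, at 2.15 log2 units and at least 2.22-fold. Its relative Astn2, which regulates the surface level of astrotactin, was detected on the granule array but not on the other arrays.

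Cbln1 was higher on the granule array than on each other array by all 3 of its probe sets. Its signal was 5099.4 on the granule array, 861.6 on the Sox1 array, 732.0 on the HB9-GFP+-labelled array and 330.3 on the ES array. It was detected on all 4 arrays, and the granule array stood above the other 3. The gene was 5.92-fold higher on the granule array than on the Sox1 array, 6.97-fold higher than on the HB9-GFP+-labelled array and 15.4-fold higher than on the ES array. All 3 probe sets passed the 4-fold rule in each of these comparisons, at 2.57 to 3.55, 2.75 to 3.56 and 3.18 to 4.69 log2 units in the same order. Between the Sox1 array, the HB9-GFP+-labelled array and the ES array no difference reached 4-fold.

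Taking the 8 genes by comparison, every call had the granule array, the Sox1 array or, for Cxcl12, the HB9-GFP+-labelled array as the higher one, and no gene was called lower. For granule minus Sox1, 4 of 8 were higher (Reln, Astn1, Cxcl12 and Cbln1), against 3.66% of all genes higher and 2.09% lower, and the members' median log2 difference was 2.07 against 0 over all genes. For granule minus ES, 6 of 8 were higher (those 4, Vldlr and Cxcr4), against 6.83% higher and 4.99% lower, with a median of 3.17. For granule minus HB9-GFP+, 4 of 8 were higher (Reln, Vldlr, Astn1 and Cbln1), against 7.41% higher and 5.53% lower, with a median of 2.21. For Sox1 minus ES, 3 of 8 were higher (Reln, Astn1 and Cxcr4), against 3.59% higher and 3.02% lower, with a median of 1.83. For HB9-GFP+ minus ES, 1 of 8 was higher (Cxcl12), against 1.11% higher and 0.813% lower, with a median of 0.05. The first 3 comparisons share the granule array and 3 of the 5 share the ES array, so they are not independent. The members were chosen with earlier results of these data known. The shares are over all 18193 genes, of which 11571, with all 8 members among them, were detected on any array, and an undetected gene cannot be called.

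By probe set, 7 of 24 were higher for granule minus Sox1 (3.26% of all probe sets), 11 for granule minus ES (5.85%), 9 for granule minus HB9-GFP+ (6.93%), 4 for Sox1 minus ES (2.81%) and 1 for HB9-GFP+ minus ES (0.867%). Over all genes the split of calls depended on the scaling. For granule minus Sox1, 665 were higher and 380 lower, and 1547 and 170 with centring on reference genes without Hprt. For granule minus ES, 1243 were higher and 907 lower, and 1993 and 613 with that centring. For granule minus HB9-GFP+, 1348 were higher and 1006 lower, and 2642 and 457 with it. For Sox1 minus ES, 653 were higher and 549 lower, and 486 and 766 with it. For HB9-GFP+ minus ES, 202 were higher and 148 lower, against 114 and 305 with it and 231 and 109 with quantile normalization. That centring moved the median of all genes by 0.26 log2 units for granule minus Sox1 and 0.13 for granule minus HB9-GFP+. Genes at the low level on both arrays keep a difference of 0, so these medians understate the shift of detected genes. Reln went from 4.53 to 5.42 for granule minus Sox1, and Cbln1 from 2.80 to 3.75 for granule minus HB9-GFP+. No called difference of a member changed sign under these scalings.

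**Figure D3:**
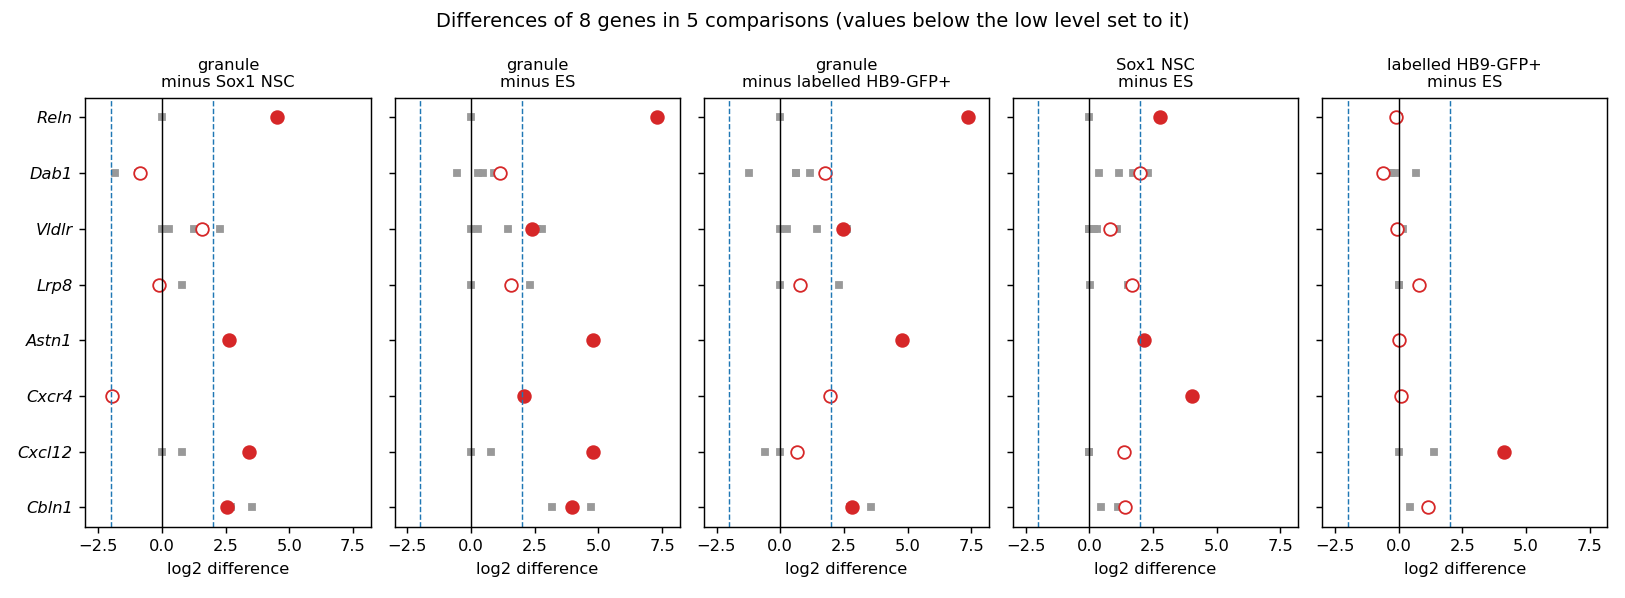
Log2 difference (horizontal) of the 8 genes (rows) in the 5 comparisons (panels), with signals below the low level set to it. Circles are the probe set that stands for the gene, filled where it passed the 4-fold rule, grey squares are its other probe sets, and dashed lines mark 2 log2 units. In the granule comparisons the filled circles all lie on the right, with Reln farthest at 4.53, 7.29 and 7.39.

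The counts in gene lists stand beside the shares of all genes called, which were 3.66% higher and 2.09% lower for granule minus Sox1, 6.83% and 4.99% for granule minus ES, 7.41% and 5.53% for granule minus HB9-GFP+, 3.59% and 3.02% for Sox1 minus ES, and 1.11% and 0.813% for HB9-GFP+ minus ES. Of 27 other measured genes of reelin transduction, 2 were higher and 0 lower for granule minus Sox1 (median log2 difference 0.35), 7 higher and 0 lower for granule minus ES (0.58), and 6 higher and 0 lower for granule minus HB9-GFP+ (0.72). Mapt, the microtubule protein tau, was at 2346.0 on the granule array and 83.0 on the Sox1 array, at least 14.9-fold higher. Cdk5r1, the p35 activator of the kinase Cdk5, was 7.44-fold higher, at 2539.1 against 341.4. Fyn, which phosphorylates Dab1, was 10.0-fold higher on the granule array (4065.0) than on the ES array (405.4), with 1302.4 on the Sox1 array and 398.9 on the HB9-GFP+-labelled array. Pik3r3, a regulatory subunit of phosphoinositide 3-kinase, was 8.14-fold higher on the granule array than on the ES array, and the kinase gene Akt1 was at 1284.5 against 38.9. Gsk3b, a kinase downstream of Akt, was 5.92-fold higher on the granule array than on the HB9-GFP+-labelled array. Pafah1b1 and Ndel1, whose products act on dynein in nuclear movement, were detected on all 4 arrays and differed by less than 4-fold in each comparison. For Sox1 minus ES the list had 2 higher (Akt1 and the adaptor Nck2) and 1 lower (Mapt), and for HB9-GFP+ minus ES 1 higher (Akt1) and 1 lower (Dab2, at 232.6 against 947.7).

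Proteases that cut reelin and other ligands or partners of its receptors were mixed. Of 21 measured genes, 3 were higher and 3 lower for granule minus Sox1, 3 higher and 2 lower for granule minus ES, 1 higher and 0 lower for granule minus HB9-GFP+, 4 higher and 0 lower for Sox1 minus ES and 1 higher and 0 lower for HB9-GFP+ minus ES. Apoe, which encodes an apolipoprotein that both reelin receptors bind, was at 1170.0 on the granule array, 87.3 on the Sox1 array, 1689.8 on the HB9-GFP+-labelled array and 182.0 on the ES array. Plat, the tissue plasminogen activator, was at least 8.91-fold higher on the granule array than on the ES array and at least 10.6-fold higher on the Sox1 array than on the ES array. Lrp2, the receptor megalin, was undetected at 26.1 on the granule array, against 1360.4 on the Sox1 array and 574.6 on the ES array. Adamts3, a protease that cleaves reelin, was called higher on the Sox1 array (419.5) than on the ES array (39.2) and was undetected on the granule array. Efnb2 and Efnb3, genes of ephrins, were also called higher on the Sox1 array than on the ES array, at 7178.5 against 734.4 for Efnb2 and 573.5 against 27.3 for Efnb3. Clu, which encodes clusterin, a ligand of both receptors, was 6.80-fold higher on the granule array than on the Sox1 array. Apba1, an adaptor gene, was at least 4.30-fold higher on the granule array than on each of the other 3 arrays, at 676.6 against 99.6 on the Sox1 array, 21.0 on the HB9-GFP+-labelled array and 48.1 on the ES array. Pcsk6, a proprotein convertase gene, was 4.52-fold lower on the granule array than on the ES array.

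Of 31 measured genes of neuron migration, 8 were higher and 0 lower for granule minus Sox1 (median 0.45), 16 higher and 2 lower for granule minus ES (2.05), 14 higher and 1 lower for granule minus HB9-GFP+ (1.54), 8 higher and 0 lower for Sox1 minus ES (1.07), and 2 higher and 0 lower for HB9-GFP+ minus ES (0.00). Cntn2, an adhesion molecule of premigratory granule neurons, was at 3303.6 on the granule array and 51.7 on the Sox1 array, at least 21.0-fold higher. Sema6a, which acts in the switch to radial migration, was 14.4-fold higher and the adhesion gene L1cam 13.0-fold higher in the same comparison. Dcx, the microtubule protein of migrating neurons, was 11.5-fold higher, at 9634.5 against 836.8. Cdh2, the neural cadherin, was at 5405.5 on the granule array, 9286.4 on the Sox1 array and undetected at 68.5 on the ES array. Dcc, a netrin receptor gene, and Dclk1, a relative of Dcx, were at least 47.5-fold and at least 31.3-fold higher on the granule array than on the ES array. The same bounds held against the HB9-GFP+-labelled array, and Unc5c, another netrin receptor gene, was at 3783.7 on the granule array against 40.4 there. For Sox1 minus ES the 4 largest differences were those of Cdh2, Dcc, Slit2 and Ntn1. The 2 genes higher for HB9-GFP+ minus ES were the secreted guidance genes Ntn1 and Slit2.

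The chemokine list had 17 measured genes. For granule minus Sox1, the G protein subunit gene Gng2 was 4.46-fold higher and Ackr3 6.23-fold lower. For granule minus ES, 2 were higher (Gng2 and Gnaq) and 1 lower, Dpp4, a protease that inactivates Cxcl12, which was undetected at 4.2 on the granule array against 820.3 on the ES array. The same 3 genes were called in the same directions for granule minus HB9-GFP+. For Sox1 minus ES, Ackr3 was 14.7-fold higher and Dpp4 lower, and none was called for HB9-GFP+ minus ES.

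Cerebellin relatives and partners were mostly dim. Of 12 measured, 9 were detected on the granule array, 4 on the Sox1 array, 1 on the HB9-GFP+-labelled array and 2 on the ES array. For granule minus Sox1, 2 were higher, Dcc (5.33-fold), which is also in the migration list, and C1ql3. The call of C1ql3 was close to the rule, at 353.8 against an undetected 87.2, a log2 difference of 2.02 and at least 2.25-fold. For granule minus ES and granule minus HB9-GFP+, 3 were higher, those 2 and the neurexin gene Nrxn2. Nrxn2, of the presynaptic receptor family that cerebellin binds, was at 404.2 on the granule array, 184.7 on the Sox1 array, 81.6 on the HB9-GFP+-labelled array and 15.1 on the ES array. Cbln3, which is made by mature granule cells with Cbln1, gave no detected signal (49.5 on the granule array), and nor did Gabra6, a receptor gene of mature granule cells, at 79.9. For Sox1 minus ES, Dcc was higher and Nptx2 lower, and none was called for HB9-GFP+ minus ES.

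**Figure D4:**
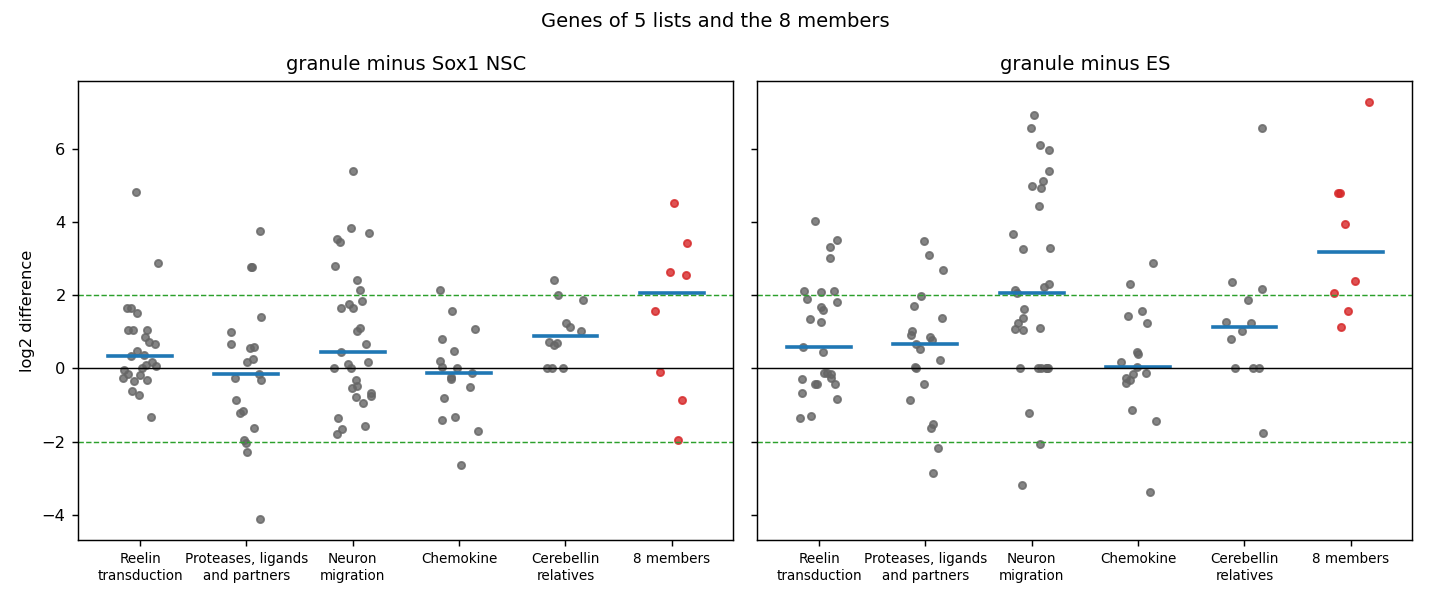
Log2 difference (vertical) of each measured gene of 5 lists (grey points) and of the 8 members (red points), for granule minus Sox1 (left) and granule minus ES (right), with signals below the low level set to it. Blue bars are medians and dashed lines mark 2 log2 units. The median of the members was 2.07 on the left and 3.17 on the right, and that of the reelin transduction list 0.35 and 0.58.

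The pattern of each member over the 4 arrays was set beside that of 11563 other genes detected on at least 1 array, by the root mean square distance of log2 values after centring each gene on its own mean. The nearest to Reln was Dcx, at 0.36 log2 units, followed by St18, a zinc finger gene, at 0.45. Nearest to Astn1 were Timp4 (0.05) and Tmod2 (0.11), nearest to Vldlr Gatm (0.03) and Itpkb (0.07), and nearest to Cbln1 Ctxn1 (0.09) and Shf (0.10). The nearest to Cxcr4 were Sh3pxd2b (0.08) and Cachd1 (0.11), to Dab1 Vezf1 and Nrip1 (both 0.13), and to Lrp8 Xrn1 (0.03) and Setd1b (0.05). Tmem176b was nearest to Cxcl12 (0.16), with signals of 1997.2 on the granule array, 230.5 on the Sox1 array, 1180.6 on the HB9-GFP+-labelled array and 8.9 on the ES array, while the next, Efhd2, was much farther at 0.51. With 4 points per gene and values at the low level shared by many genes, such likeness is a description of these arrays.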

How the data were processed

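Each of 4 kinds of mouse cell had 1 array. For 45101 probe sets the deposited files hold linear intensities, which ran from 0.1 to 43110.3. GCRMA is named, without version, per the submitters' processing notes, but the arrays' trimmed means are equal, as after linear scaling, so how the authors made these intensities is not settled. Scaling to a common mean hides differences in total RNA. Gene names came from the platform annotation, in which 34958 probe sets had 1 symbol, 932 several and 9211 none, and the 64 control probe sets stood for no gene. Of the probe sets with several symbols, 0 named a member. The genome build of the array is not given in the sources used here, and promoter windows were matched by gene ID.

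Signals were floored at the low level, turned into log2 values and compared by the 4-fold rule in Python 3.11.15 with pandas 2.3.3 and numpy 2.4.6, checked on simulated data. Named genes are the 8 members, the 2 genes nearest to each, and from each pathway list and comparison all called genes where 5 or fewer were called, otherwise the 4 largest differences. Other genes named beside a result (Astn2, Pafah1b1, Ndel1, Cbln3, Gabra6, Fabp7, Ppp1r17, Trp73, Nhlh2, Ebf3, Calb2, Lhx1, Lhx5, Foxc1, Foxd1, Twist1, Col3a1, Igf2, Col1a2, Olig2 and Mnx1) were chosen after their values were seen. The members and lists were chosen with earlier results of these data known. In all, 12 alternative settings were planned and 1 was added after seeing the data.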

Additional observations from a re-analysis of the deposited data

How the results depend on the processing

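No called difference of a member changed direction under the 12 planned settings. Nor did one without the HB9-GFP+-labelled array, a setting added after seeing the data that allows 3 comparisons. It left 4, 6 and 3 members called for granule minus Sox1, granule minus ES and Sox1 minus ES, as with all 4 arrays. Of all genes, 1022, 2098 and 1155 were called there. Detection at 2 log2 units above the low level changes no call by construction. Settings that move only the call size, the low level or the pseudocount cannot reverse a direction. Leaving out an array does not alter the signals of the others. Choosing the probe set with the largest lowest signal gave every member the same differences. Both centrings shift the detected genes of a comparison by nearly the same amount, less than the 2 log2 units of a call, so neither could reverse one. For granule minus HB9-GFP+, for example, Cbln1 went from 2.80 to 3.85 and 3.75, with and without Hprt. Only quantile normalization and the mean over probe sets could have reversed one. Called at 8-fold, 2 members were called for granule minus Sox1 (372 of all genes), 4 for granule minus ES (912) and 2 for granule minus HB9-GFP+ (991). At 8-fold 1 member each was called for Sox1 minus ES (444) and HB9-GFP+ minus ES (62). Called at 2-fold, granule minus Sox1 had 5 members higher and 1, Cxcr4, lower (3443 of all genes called). At 2-fold all 8 members were higher for granule minus ES (5549) and 6 for granule minus HB9-GFP+ (5841). There were 7 higher for Sox1 minus ES (4038) and 2 for HB9-GFP+ minus ES (2489). With the low level 1 log2 unit higher, low signals share one value. Then 1 member was called for Sox1 minus ES (Cxcr4, with 860 of all genes) and 1 for HB9-GFP+ minus ES (Cxcl12, with 227). With the mean over probe sets, 0 members were called for HB9-GFP+ minus ES, where Cxcl12 was lost, and all genes gave 634, 1403, 1546, 742 and 208 calls in the order granule minus Sox1, granule minus ES, granule minus HB9-GFP+, Sox1 minus ES and HB9-GFP+ minus ES. With no low level these were 2910, 4497, 4814, 3289 and 2146. Centring on reference genes without Hprt gave 1717 for granule minus Sox1. Among single members, Cxcr4 lost its call for granule minus ES with a higher low level, quantile normalization or a pseudocount of 16, and was called lower for granule minus Sox1 with quantile normalization, which also called Dab1 higher for Sox1 minus ES. With the mean over probe sets, Vldlr and Cxcl12 lost every call and Reln its call for Sox1 minus ES. Both centrings on reference genes ended the call of Astn1 for Sox1 minus ES and added calls of Vldlr for granule minus Sox1, Lrp8 for granule minus ES, and Dab1 and Cxcr4 for granule minus HB9-GFP+. The cause was not tested for the scalings. Dim probe sets limit what can be read of Lrp8, Dab1 and the cerebellin relatives. No paired analysis was possible because each kind of cell has 1 array and the labels give no replicate numbers.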
